A study of Mus musculus with 42 samples.

Results

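Astrocyte genes, 10 in all, were followed in cultures of 3 mouse genotypes, and 2 sets among them lay on opposite sides. The glutamate transporters Slc1a2 and Slc1a3 were lower in the Ts65Dn cultures than in the euploid ones, while the water channel Aqp4, the gap junction gene Gja1 and the folate enzyme gene Aldh1l1 were higher. The 10 genes (Slc1a2, Slc1a3, Aqp4, Gja1, Aldh1l1, Gfap, S100b, Sox9, Aldoc and Atp1b2) are a named list out of 17173 genes tested, and all 10 passed the filter on low counts. The list was chosen by the culture RNA values themselves, so those values are given as a description, without a test. Tests were run on 122 other astrocyte genes in 6 lists by role, of which 117 passed the filter. The same genes were then looked up in 6 peak lists of adult hippocampus.

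The RNA came from primary neurons grown from forebrain at embryonic day 16, and there were 3 libraries each of euploid, Ts65Dn and Ts65Dn;Brwd1+/- genotype. By the paper's methods the cells were collected after days in culture, so the values are not those of embryonic tissue. Ts65Dn mice carry an extra chromosome made of segments of mouse chromosomes, Brwd1 among their genes, and Ts65Dn;Brwd1+/- mice are Ts65Dn mice bred to carry the repro5 mutant allele of Brwd1, which the study used to bring Brwd1 back towards the euploid copy number. All groups shared a mixed background of DBA/2J and B6EiC3Sn/J. Each embryo's cortices were dissociated on their own, and AraC was added against dividing glia, in a culture made to enrich for neurons. Which cells of the culture the RNA of these genes came from was not measured. Hippocampus of adult males gave the chromatin data: immunoprecipitation of SMARCA2/4, the ATPases of the BAF remodelling complex, from pooled tissue of 2 animals aged 6 to 8 weeks per library (4 libraries per genotype), and ATAC-seq of open chromatin from neuronal nuclei sorted for NeuN (3 libraries per genotype). Each of these had been reduced to 1 pooled peak list per genotype, so no replicate error can be given for peaks.

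Astrocytes take up the glutamate that neurons release through the transporters GLT-1 (Slc1a2) and GLAST (Slc1a3), turn it into glutamine and return it. The same cells hold water channels at their endfeet (Aqp4), form a network through connexin 43 (Gja1), and are commonly marked by Aldh1l1, the intermediate filament gene Gfap, the calcium-binding protein gene S100b, the transcription factor gene Sox9, the glycolytic enzyme gene Aldoc and Atp1b2, which encodes a beta subunit of the sodium pump. Such markers are commonly used together to track astrocytes.

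Gene lines held between 17270070 and 25892802 counts per culture library. Brwd1 lay between 85.9 and 93.2 CPM (counts scaled to the size of each library) in euploid, between 125 and 129 in Ts65Dn, and between 124 and 146 in the libraries labelled Ts65Dn;Brwd1+/-, so the last were not below Ts65Dn. Whether the repro5 allele still makes RNA that is counted here was not tested, and the total does not check the label in that case. The labels call the cultures pooled male and female, yet Xist was between 1409 and 1982 CPM in the libraries labelled Ts65Dn;Brwd1+/- and at most 1.12 CPM in the other 6, and 4 Y-linked genes summed to between 194 and 223 CPM in the other 6 and to at most 0.149 in those 3. Any difference between the libraries labelled Ts65Dn;Brwd1+/- and the others therefore cannot be told apart from a difference of sex.

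The sequences under the peaks that name members are shown first, because these intervals are where the chromatin lists and the RNA concern the same genes. The peaks come from adult hippocampus and the RNA from embryonic cultures, so whether these intervals act in the cultured cells was not tested. Each is read from the mm10 genome on the strand of the gene, 5′ to 3′. For Slc1a3 and Aldh1l1, capitals mark bases inside a SMARCA2/4 peak of the euploid list. For Slc1a2 they mark bases also inside the ATAC peak of Ts65Dn;Brwd1+/-, and for S100b the part inside the RefSeq promoter window (mm10, 250 bases before to 50 after the RefSeq start). The Atp1b2 stretch has no capitals. The Slc1a2 stretch (chr2:102703606-102703905, + strand) is the central 300 bases of an intronic ATAC peak of the Ts65Dn list, which the euploid list did not have. The Slc1a3 stretch (chr15:8663828-8664063, - strand) is an ATAC peak in an intron where 5 of the 6 lists had a peak. The Atp1b2 stretch (chr11:69605979-69606093, - strand) is the part of the euploid ATAC peak across its start that lies before every GENCODE and RefSeq exon of the gene, and all 3 ATAC lists had a peak there. The Aldh1l1 stretch (chr6:90491082-90491333, + strand) is intronic and was in the Ts65Dn and Ts65Dn;Brwd1+/- ATAC lists, and the S100b stretch (chr10:76253406-76253689, + strand) lies before the gene start, in the Ts65Dn ATAC list alone of the 6.
Slc1a2: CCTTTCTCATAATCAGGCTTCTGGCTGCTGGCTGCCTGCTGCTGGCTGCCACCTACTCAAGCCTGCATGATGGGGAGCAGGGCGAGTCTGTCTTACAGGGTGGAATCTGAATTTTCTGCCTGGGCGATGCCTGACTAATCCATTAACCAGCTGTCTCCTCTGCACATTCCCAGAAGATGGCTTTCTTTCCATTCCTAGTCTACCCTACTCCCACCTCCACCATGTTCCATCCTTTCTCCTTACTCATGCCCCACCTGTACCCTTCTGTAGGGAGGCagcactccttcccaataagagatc
Slc1a3: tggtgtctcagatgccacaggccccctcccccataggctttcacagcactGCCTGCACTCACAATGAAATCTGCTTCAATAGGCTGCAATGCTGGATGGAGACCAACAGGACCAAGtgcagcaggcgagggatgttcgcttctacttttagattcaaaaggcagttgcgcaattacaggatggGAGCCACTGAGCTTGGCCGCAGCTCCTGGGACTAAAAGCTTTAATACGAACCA
Atp1b2: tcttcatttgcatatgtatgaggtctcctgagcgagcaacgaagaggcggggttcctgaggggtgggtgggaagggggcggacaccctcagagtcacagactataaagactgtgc
Aldh1l1: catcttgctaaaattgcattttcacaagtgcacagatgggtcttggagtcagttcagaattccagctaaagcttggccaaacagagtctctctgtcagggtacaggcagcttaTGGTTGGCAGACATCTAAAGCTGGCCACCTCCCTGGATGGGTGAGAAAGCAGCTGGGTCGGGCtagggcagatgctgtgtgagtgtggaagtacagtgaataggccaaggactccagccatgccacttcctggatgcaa
S100b: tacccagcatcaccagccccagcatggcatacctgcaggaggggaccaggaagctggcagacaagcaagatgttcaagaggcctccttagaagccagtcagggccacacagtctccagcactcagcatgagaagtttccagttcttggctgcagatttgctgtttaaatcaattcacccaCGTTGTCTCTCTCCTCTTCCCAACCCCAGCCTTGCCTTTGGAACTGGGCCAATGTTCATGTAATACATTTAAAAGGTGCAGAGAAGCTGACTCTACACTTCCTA
These stretches were 53% G and C with 2 CG dinucleotides for Slc1a2, 52.1% with 5 for Slc1a3, 55.7% with 4 for Atp1b2, 51.2% with 1 for Aldh1l1 and 50.7% with 1 for S100b. The euploid ATAC peak just inside the annotated start of Slc1a2 (425 bases, not printed) was 72.9% with 54. By annotation (GENCODE, mm10) Slc1a2 lies at chr2:102658659-102790784 on the + strand, Slc1a3 at chr15:8634124-8710764 on the - strand, Gja1 at chr10:56377330-56402513 on the + strand and Aldh1l1 at chr6:90486427-90600203 on the + strand.

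For the transporters, Ts65Dn cultures lay lowest and the libraries labelled Ts65Dn;Brwd1+/- highest. Slc1a2 stood at 389, 306 and 342 CPM in the 3 euploid libraries, at 245, 145 and 136 in Ts65Dn, and at 581, 558 and 540 in those labelled Ts65Dn;Brwd1+/-. The 3 genotypes did not overlap, and replicate 1 of Ts65Dn lay nearest to euploid. The log2 fold change of Slc1a2 was -0.98 (SE 0.20) in Ts65Dn against euploid, 1.67 (SE 0.20) in Ts65Dn;Brwd1+/- against Ts65Dn, and 0.70 (SE 0.20) in Ts65Dn;Brwd1+/- against euploid. Slc1a3 was at 1381, 1109 and 1436 CPM in euploid, 947, 750 and 866 in Ts65Dn, and 1522, 1630 and 1713 in the third group. Again no library of a genotype lay inside the range of another, although the gap between euploid and the third group was narrower than the spread within euploid. Log2 fold changes were -0.62 (SE 0.12), 0.93 (SE 0.13) and 0.31 (SE 0.12) in the same order of comparisons. In every library Slc1a3 gave more reads than Slc1a2, with 3.55 to 4.21 reads per Slc1a2 read in euploid, 3.86 to 6.38 in Ts65Dn and 2.62 to 3.17 in the third group, so that this ratio overlapped between euploid and Ts65Dn. Neuron markers moved beside the transporters. All 12 neuron markers fell in Ts65Dn against euploid (21.1% of all genes) and all 12 rose in Ts65Dn;Brwd1+/- against Ts65Dn (27.6% of all genes). Their sums were 4740 to 5826 CPM in euploid, 1169 to 2992 in Ts65Dn and 5218 to 6521 in the third group. Within Ts65Dn, replicates 1, 2 and 3 had neuron sums of 2992, 2576 and 1169 CPM beside Slc1a2 at 245, 145 and 136 and Slc1a3 at 947, 750 and 866. Their part in the transporter values was not tested.

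Aqp4, Gja1 and Aldh1l1 stood the other way in Ts65Dn. Aqp4 was at 368, 243 and 320 CPM in euploid, 874, 786 and 845 in Ts65Dn, and 230, 285 and 287 in the libraries labelled Ts65Dn;Brwd1+/-. Ts65Dn was apart from both other groups, which overlapped each other. The log2 fold change was 1.43 (SE 0.15) against euploid and -1.65 (SE 0.15) in Ts65Dn;Brwd1+/- against Ts65Dn. Gja1 followed the same order at a smaller size, with 502, 407 and 544 CPM in euploid, 803, 833 and 869 in Ts65Dn, and 382, 500 and 518 in the third group, and log2 fold changes of 0.79 (SE 0.14) and -0.84 (SE 0.14). Aldh1l1, which encodes a 10-formyltetrahydrofolate dehydrogenase, parted from both: it was at 59.7, 66.3 and 74.4 CPM in euploid, 139, 146 and 162 in Ts65Dn, and 112, 118 and 124 in the libraries labelled Ts65Dn;Brwd1+/-. Thus its Ts65Dn;Brwd1+/- libraries lay between the other genotypes without touching either, at a log2 fold change of -0.34 (SE 0.10) to Ts65Dn and 0.82 (SE 0.10) to euploid.

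**Figure D1:**
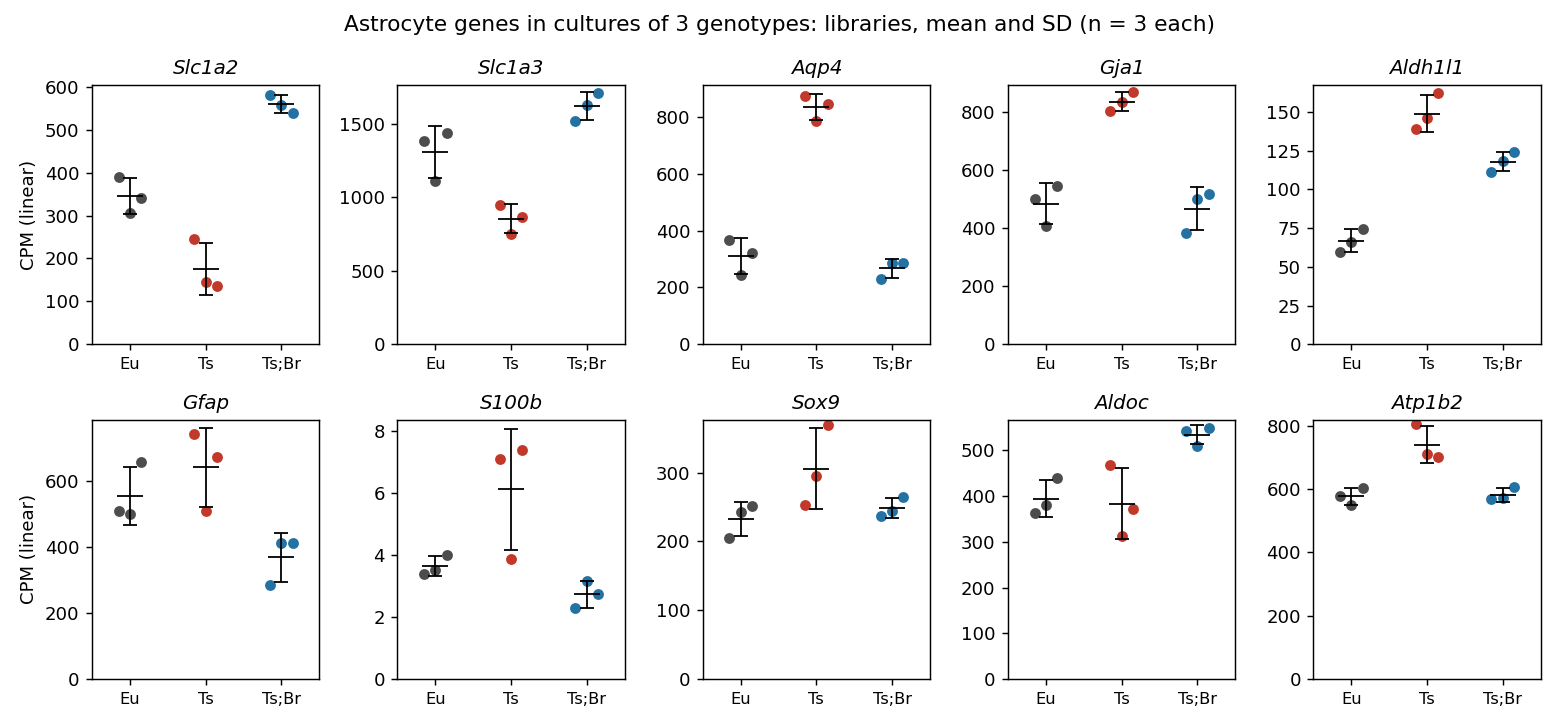
CPM of the 10 astrocyte genes (linear axes from 0) in euploid (Eu), Ts65Dn (Ts) and Ts65Dn;Brwd1+/- (Ts;Br) cultures; points are libraries, bars the mean and SD of 3. Slc1a2 and Slc1a3 are lowest in Ts65Dn, whereas Aqp4, Gja1 and Aldh1l1 are highest there, and Gfap, S100b and Aldoc overlap between euploid and Ts65Dn.

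The other 5 members had smaller or overlapping differences in Ts65Dn against euploid. In Ts65Dn;Brwd1+/- against Ts65Dn, S100b (-1.18), Gfap (-0.80) and Aldoc (0.48) did not overlap and had log2 fold changes larger in size than that of Aldh1l1 (-0.34). Atp1b2 (-0.35) did not overlap either and was close to Aldh1l1 in size. Gfap, which encodes the filament of reactive astrocytes, was at 510, 500 and 657 CPM in euploid, 744, 510 and 673 in Ts65Dn and 284, 411 and 413 in the third group, so that euploid and Ts65Dn overlapped and the libraries labelled Ts65Dn;Brwd1+/- lay below both. S100b was near the lower end of the range, at 3.40 to 4.01 CPM in euploid, 3.85 to 7.37 in Ts65Dn and 2.27 to 3.17 in the third group; its Ts65Dn value rests on replicates 1 and 3, since replicate 2 lay within euploid. Sox9 was at 205, 242 and 251 CPM in euploid, 253, 295 and 369 in Ts65Dn, and 236, 244 and 265 in the libraries labelled Ts65Dn;Brwd1+/-, a log2 fold change of 0.39 (SE 0.14) for Ts65Dn against euploid with the groups almost touching. Aldoc differed little between euploid (394 ± 40.6 CPM, SD, n = 3) and Ts65Dn (384 ± 78.0) and was higher in the third group (534 ± 20.7), on the same side as the transporters. Atp1b2 was at 578 ± 27.2 CPM in euploid, 740 ± 58.2 in Ts65Dn and 582 ± 20.8 in the third group, on the side of Aqp4 and Gja1 at a log2 size of 0.36 (SE 0.09).

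Counted over the 10 members, the libraries of Ts65Dn and euploid did not overlap for 7, of which 5 were higher and 2 lower in Ts65Dn. Over all 17173 genes the groups did not overlap for 56.8%. Ts65Dn;Brwd1+/- and Ts65Dn did not overlap for 9 members (3 higher, 6 lower; 68.4% of all genes), and Ts65Dn;Brwd1+/- and euploid for 6 members (4 higher, 2 lower; 45.9% of all genes). Nothing is read from these member counts, because the genes were chosen by the same values. The medians of all genes were 0.04, 0.00 and -0.02 on the log2 scale in the 3 comparisons.

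The split can be stated without any scaling between libraries, as a ratio of reads within each one. Euploid libraries held 1.06, 1.26 and 1.07 Slc1a2 reads per Aqp4 read, Ts65Dn libraries 0.280, 0.185 and 0.161, and the libraries labelled Ts65Dn;Brwd1+/- 2.53, 1.96 and 1.88. Transcripts of unequal length give unequal reads, so only the differences between libraries are read from this ratio. The mean log2 CPM of Slc1a2 and Slc1a3 exceeded that of Aqp4, Gja1 and Aldh1l1 by 1.58 to 1.72 in euploid and 1.86 to 2.14 in the third group. In Ts65Dn it lay between -0.52 and 0.07, where replicate 1 was the library above 0. From the fitted fold changes the difference between the 2 sets was -1.92 for Ts65Dn against euploid, 2.24 for Ts65Dn;Brwd1+/- against Ts65Dn, and 0.32 for Ts65Dn;Brwd1+/- against euploid. In bulk RNA, fewer cells of a type and less RNA per cell cannot be told apart for any one of them.

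**Figure D2:**
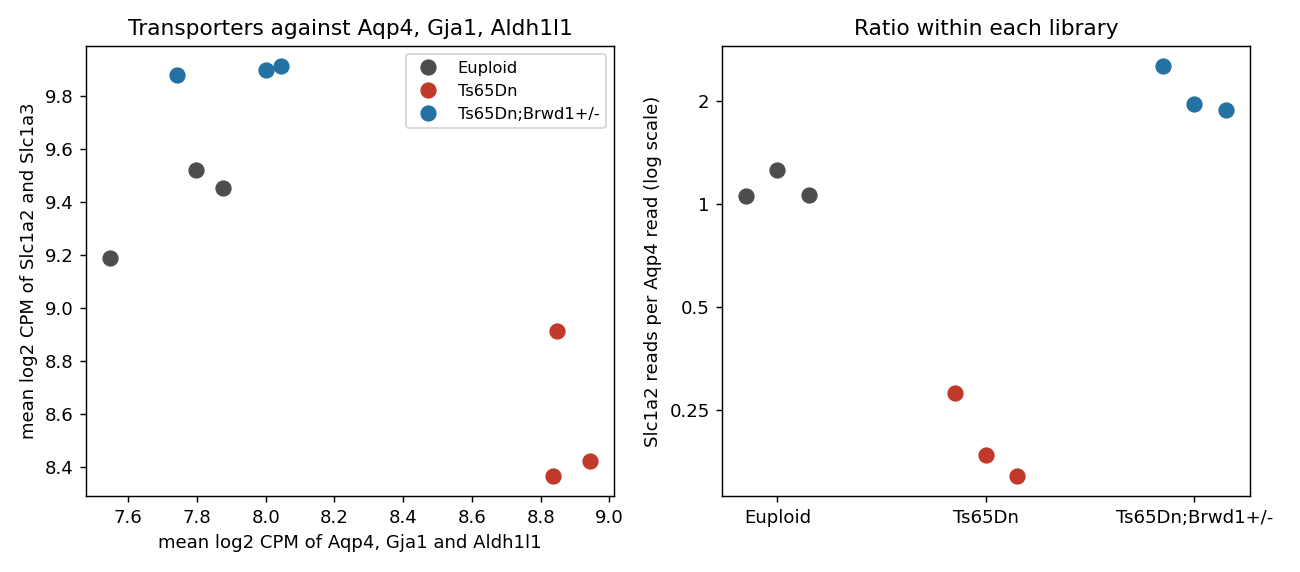
Left, mean log2 CPM of Slc1a2 and Slc1a3 against that of Aqp4, Gja1 and Aldh1l1, 1 point per culture library; right, Slc1a2 reads per Aqp4 read in each library on a log axis. The 3 Ts65Dn libraries lie at the lower right, with 0.161 to 0.280 Slc1a2 reads per Aqp4 read, and the other 6 libraries at 1.06 to 2.53.

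Levels between genes can be compared only per length. As CPM per kilobase of annotated exon (RPKM), the order in euploid was Slc1a3 (153), Atp1b2 (141), Gfap (132), Aldoc (121), Sox9 (56.3), Aqp4 (49.8), Gja1 (47.2), Slc1a2 (26.3), Aldh1l1 (14.8) and S100b (2.45). Neighbours among the first 3 overlapped in range, as did Gfap with Aldoc, Sox9 with Aqp4, and Aqp4 with Gja1. In Ts65Dn, Atp1b2 (181 RPKM) came first, Aqp4 (134) stood above Slc1a3 (100), and Slc1a2 (13.4) stood below Aldh1l1 (33.0), without overlap in either case. Ranges of Atp1b2 and Gfap overlapped there, as did those of Gfap, Aqp4 and Aldoc. In the libraries labelled Ts65Dn;Brwd1+/-, Slc1a3 (190 RPKM) and Aldoc (164) led, and Slc1a2 (42.6), Aqp4 (42.8) and Gja1 (45.5) could not be ordered because their ranges overlapped. Exons of all transcripts were joined for the length (13133 bases for Slc1a2, 1484 for S100b), which lowers the level of genes with long alternative ends. Of the Aldh1l1 exons, 13.4% of the bases are shared with other annotated genes and of the Slc1a2 exons 1.44%, where reads could not be assigned to 1 gene.

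Aqp4 and Gja1 were named by no peak in any of the 6 lists. Slc1a2 was named in all 6 and Slc1a3 in 5. In the Ts65Dn SMARCA2/4 list each rests on 1 peak with a q-value of 0.293. The ATAC nuclei were sorted for NeuN, so those lists describe neurons, and open chromatin of astrocytes was not measured. Nothing about the RNA split is read from these peaks. In the ATAC lists of neuronal nuclei, 4 of 15521 euploid peaks named members, beside 13 of 29195 for Ts65Dn and 11 of 30244 for Ts65Dn;Brwd1+/-. By gene, 3 of 10 members were named in euploid, against 53.3% of all tested genes, 7 in Ts65Dn (66% of all) and 5 in Ts65Dn;Brwd1+/- (65.6% of all). The other astrocyte genes stood at 32.5%, 53.8% and 52.1% of 117, below all genes in each list, whereas the members' own count was near that of all genes in Ts65Dn. Slc1a2 had its start peak in all 3 lists, with fold enrichments over local background of 4.04, 4.47 and 3.88, and Slc1a3 an intragenic peak whose middle lay 12994 to 13019 bases from its start with 4.65, 5.68 and 5.03. S100b, Sox9 and Gfap were named in Ts65Dn only, at 3.35, 3.23 and 3.73, and Aldoc in Ts65Dn;Brwd1+/- only, at 3.07. Since the euploid list holds the fewest peaks, and depth per library is unknown, absence from it cannot be told apart from a shorter list.

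In the SMARCA2/4 lists from whole hippocampus, 13 of 22667 euploid peaks named members, against 2 of 1290 in Ts65Dn and 1 of 1873 in Ts65Dn;Brwd1+/-. In all, 6 members were named in euploid (38.6% of all tested genes), 2 in Ts65Dn (4.14%) and 1 in Ts65Dn;Brwd1+/- (4.89%). Slc1a2 had 4 of the euploid peaks, the strongest a 76 base peak 282 bases inside the gene start with a fold enrichment of 5.28 and a q-value of 2.82e-06, above 97.3% of the peaks in that list, and 2 of the 4 had q-values over 0.05 (0.131 and 0.0721). Slc1a3 had 3, among them 1 at its start (q 0.0294), and Atp1b2 had 3 within 528 bases of its start. The 2 Ts65Dn peaks, at Slc1a2 and Slc1a3, both had a q-value of 0.293. The peak in the Ts65Dn;Brwd1+/- list, at Slc1a2, had a q-value of 0.0187 and lay 1061 bases inside the gene, apart from the euploid ones. The euploid list was more than 10 times as long as either other, and the counts by genotype cannot be told apart from this difference in length. Of the 117 other astrocyte genes, 43.6%, 7.69% and 9.4% were named in the 3 lists.

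**Figure D3:**
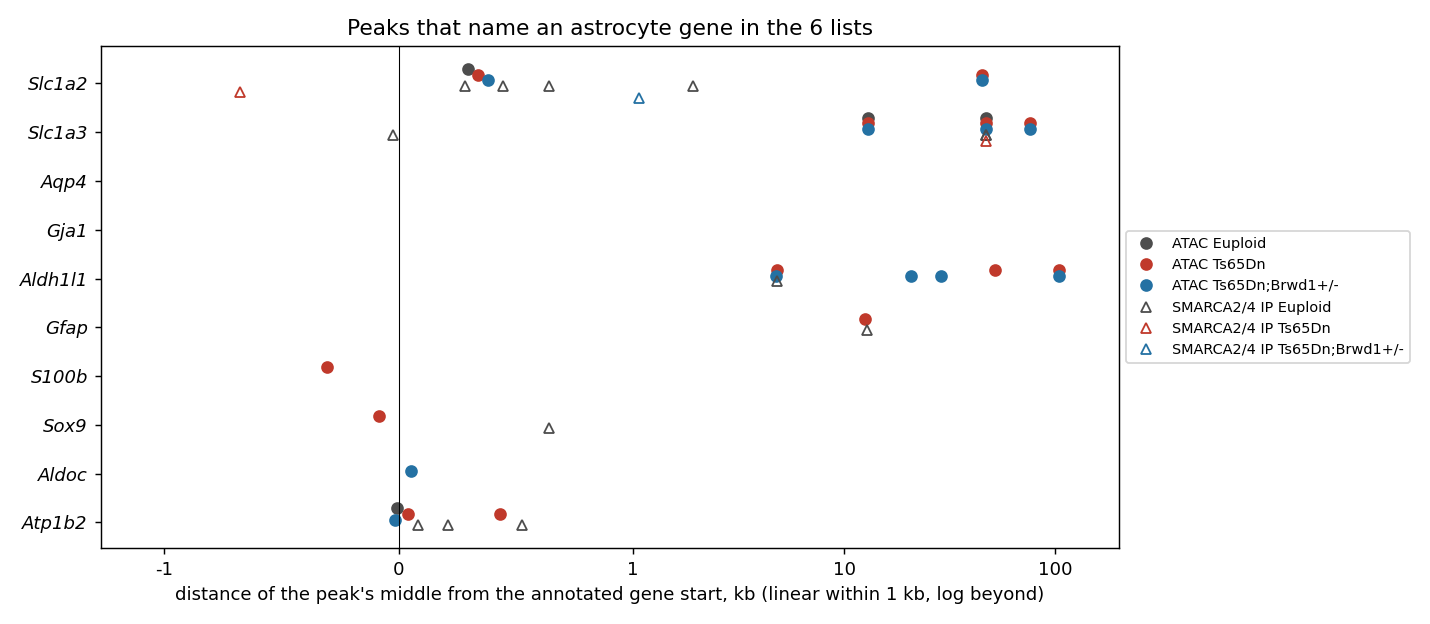
Peaks that name each astrocyte gene in the 6 lists, by the distance of their middle from the annotated gene start (kb, linear within 1 kb and log beyond); filled circles are ATAC and open triangles SMARCA2/4, coloured by genotype. Aqp4 and Gja1 have none, whereas Slc1a2 has peaks in all 6 lists and Slc1a3 in 5.

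RefSeq promoters (300 bases, mm10) were at hand for 7 of the 10 genes, with 2 entries for Aldoc; Aqp4, Sox9 and Atp1b2 had no entry. The entries for Slc1a2, Aldh1l1 and Gfap and 1 of those for Aldoc belong to starts further into the gene than the annotated start used above. The palindrome TTCCNGGAA, a form bound by STAT factors, was found in the entry of Gfap and in the Aldoc entry further into the gene, and in 1.15% of all 32851 promoters. The letters TATAAA were found for Slc1a3 (13.6% of all promoters), GGGCGG for Slc1a3, Aldh1l1 and 1 Aldoc entry (35.7%), and TTGGCA, part of the site of NFI factors, for S100b and 1 Aldoc entry (14.1%). Both strands were searched. None of the 4 was found in the entries of Slc1a2 and Gja1. CG dinucleotides numbered between 1 and 9 in these entries, against a median of 7.

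Among the other astrocyte genes, those that handle glutamate and GABA lay mostly with the transporters. The list held 17 tested genes, of which 10 fell and 3 rose in Ts65Dn against euploid, and 10 rose and 3 fell in Ts65Dn;Brwd1+/- against Ts65Dn. Over all genes, 25.6% rose and 21.1% fell in the first comparison, and 27.6% rose and 30.5% fell in the second. The median log2 fold change of the list was -0.31 and 0.85. Both comparisons use the Ts65Dn libraries, so their opposite signs are not independent. Slc6a11 (GAT-3), the GABA transporter of astrocytes, fell from 136 ± 9.05 to 48.0 ± 17.5 CPM (SD, n = 3; log2 fold change -1.50, SE 0.22, adjusted p = 0.000593 by edgeR) and stood at 224 in the third group. Grm5, a metabotropic glutamate receptor gene, fell from 209 to 64.2 CPM (-1.70, SE 0.37, adjusted p = 0.00415). Glul, the glutamine synthetase gene (named after its values were seen), fell by 0.44 and rose by 1.17 in the second comparison (adjusted p = 0.00375 and 6.14e-06). The genes that rose in Ts65Dn were Slc1a5, Slc38a1 and Slc38a3, carriers of neutral amino acids including glutamine, at 1.40, 0.39 and 0.56. The 3 that fell in the second comparison were Slc38a1 (-0.70), Slc38a3 (-0.36) and the mitochondrial glutamate carrier gene Slc25a18 (-0.48). Grm5 is also made by neurons, whose markers moved the same way (above), and their part in these counts was not tested.

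Of 12 tested genes for water, potassium and junctions, 4 rose and 2 fell in Ts65Dn against euploid, near the shares of all genes (25.6% and 21.1%), and 2 rose and 8 fell in Ts65Dn;Brwd1+/- against Ts65Dn (27.6% and 30.5% of all genes), with medians of 0.13 and -0.37. The genes that rose in Ts65Dn were Trpv4, a calcium channel gene (1.05, SE 0.21, adjusted p = 0.00296), Mlc1 and Hepacam, whose products sit together at astrocyte junctions (0.46 and 0.30), and the dystroglycan gene Dag1 (0.43), which anchors the complex that holds aquaporin-4. The call of Hepacam was lost when every gene with at least 1 count was kept (adjusted p = 0.0572). Dmd and Dtna, whose products belong to that complex, had 0.29 and -0.02 without passing the test. Dmd fell by 0.98 in the second comparison. The potassium channel gene Kcnj16 fell by 0.70 in Ts65Dn and rose in the second comparison (0.51, adjusted p = 0.0439), a call that was lost without any 1 of the euploid libraries, of Ts65Dn replicates 2 and 3, or of Ts65Dn;Brwd1+/- replicates 2 and 3 (adjusted p up to 0.149). Kcnj10, its partner (named after its values were seen), had -0.22 in Ts65Dn against euploid without passing the test (adjusted p = 0.117). In the second comparison Kcnj10 fell by 0.45 (adjusted p = 0.00426 by edgeR), opposite to Kcnj16. Gjb6 and Gjb2, the other connexins of astrocytes, had at most 9 counts in a library and were not tested.

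The lists of metabolism and of surface and secreted markers were divided. Of 20 metabolism and lipid genes, 10 rose and 3 fell in Ts65Dn (25.6% and 21.1% of all genes), and 4 rose and 10 fell in Ts65Dn;Brwd1+/- against Ts65Dn (27.6% and 30.5% of all genes). Clu, the clusterin gene, went from 2106 to 4188 CPM (0.99, SE 0.12, adjusted p = 0.000234) and stood at 1267 in the third group, and Slco1c1, a thyroid hormone carrier gene, rose by 0.84, whereas Cbs, a sulphur amino acid enzyme gene, fell by 0.81. Ndrg2 and the glycogen gene Ppp1r3c also fell (-0.71 and -0.36). The 4 that rose in the second comparison were Cbs (1.47), Ndrg2 (1.15), the fatty acid binding protein gene Fabp7 (0.96) and Acsbg1 (0.24), the last with an adjusted p of 0.0475 that reached 0.156 without Ts65Dn replicate 2. Of 22 surface and secreted genes, 11 rose and 3 fell in Ts65Dn, and 10 rose and 10 fell in the second comparison, beside the same shares of all genes. Htra1, a secreted protease gene, had the largest change of the list in Ts65Dn against euploid (57.6, 268 and 62.1 CPM in the 3 genotypes; log2 fold change 2.22, SE 0.10, adjusted p = 6e-07), followed by Timp3 at 1.29 and Chrdl1 at 1.12. The 3 that fell were Sparcl1 (-1.01), Mfge8 (-0.49) and S1pr1 (-0.48).

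Of 22 astrogliogenesis factors, 10 rose and 3 fell in Ts65Dn (25.6% and 21.1% of all genes), and 5 rose and 10 fell in the second comparison (27.6% and 30.5% of all genes). The 3 that fell were the Notch target gene Hes5 (4.75 to 1.34 CPM; -1.81, SE 0.21, adjusted p = 0.000156), Lhx2 (-0.92) and Emx2 (-0.52). Hes5 stood at 15.5 CPM in the third group, 3.51 (SE 0.20, adjusted p = 8.48e-07) above Ts65Dn. The other 4 that rose in the second comparison were Cntfr (0.87), Emx2 (0.77), Lhx2 (0.70) and Rorb (0.65). Hes1, a Notch target too, rose by 0.87 in Ts65Dn against euploid, Rfx4, a glial transcription factor gene, by 0.62, and Dbx2, from a low level of 0.576 CPM, by 1.30.

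Most genes of reactive astrocytes rose in Ts65Dn. Of 24 tested, 18 rose and 6 did not pass in Ts65Dn against euploid, where 25.6% of all genes rose, and 1 rose and 22 fell in Ts65Dn;Brwd1+/- against Ts65Dn, where 30.5% fell, with medians of 1.48 and -2.66. Serpina3n, a protease inhibitor gene, stood at 7.54, 83.9 and 9.02 CPM in the 3 genotypes, in the same order as before (3.48, SE 0.16, adjusted p = 6.36e-07), Lcn2 at 2.58, 19.5 and 0.808 CPM (2.93, SE 0.30, adjusted p = 7.06e-05) and the complement gene C3 at 214, 791 and 37.7 CPM (1.89, SE 0.16, adjusted p = 1.77e-05). Fkbp5, a glucocorticoid-induced gene, was the 1 that rose in the second comparison (0.90). Gfap, whose protein marks this state in tissue, had 0.21 (SE 0.18) in Ts65Dn against euploid.

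Fewer genes, of these and of all, passed the test between the libraries labelled Ts65Dn;Brwd1+/- and euploid than in the other comparisons. Of the 117 other astrocyte genes, 21 rose and 38 fell, where 14% and 15.2% of all genes did; 56 rose and 21 fell in Ts65Dn against euploid (25.6% and 21.1% of all genes), and 32 rose and 63 fell in Ts65Dn;Brwd1+/- against Ts65Dn (27.6% and 30.5%). Their medians were -0.13, 0.30 and -0.36, beside -0.02, 0.04 and 0.00 over all genes. Of 17 glutamate and GABA genes 5 rose and 2 fell, with Slc7a10 (1.72), Grm3 (1.33) and Slc1a5 (1.12) the largest rises and Slc25a18 (-0.40) and Slc38a1 (-0.31) the falls, both lost under several alternatives (adjusted p up to 0.0671 and 0.13). Of 24 reactive genes 1 rose (Fkbp5, 0.92) and 15 fell, with Cxcl10 (-3.24), C3 (-2.50) and Iigp1 (-2.38) furthest below euploid.

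**Figure D4:**
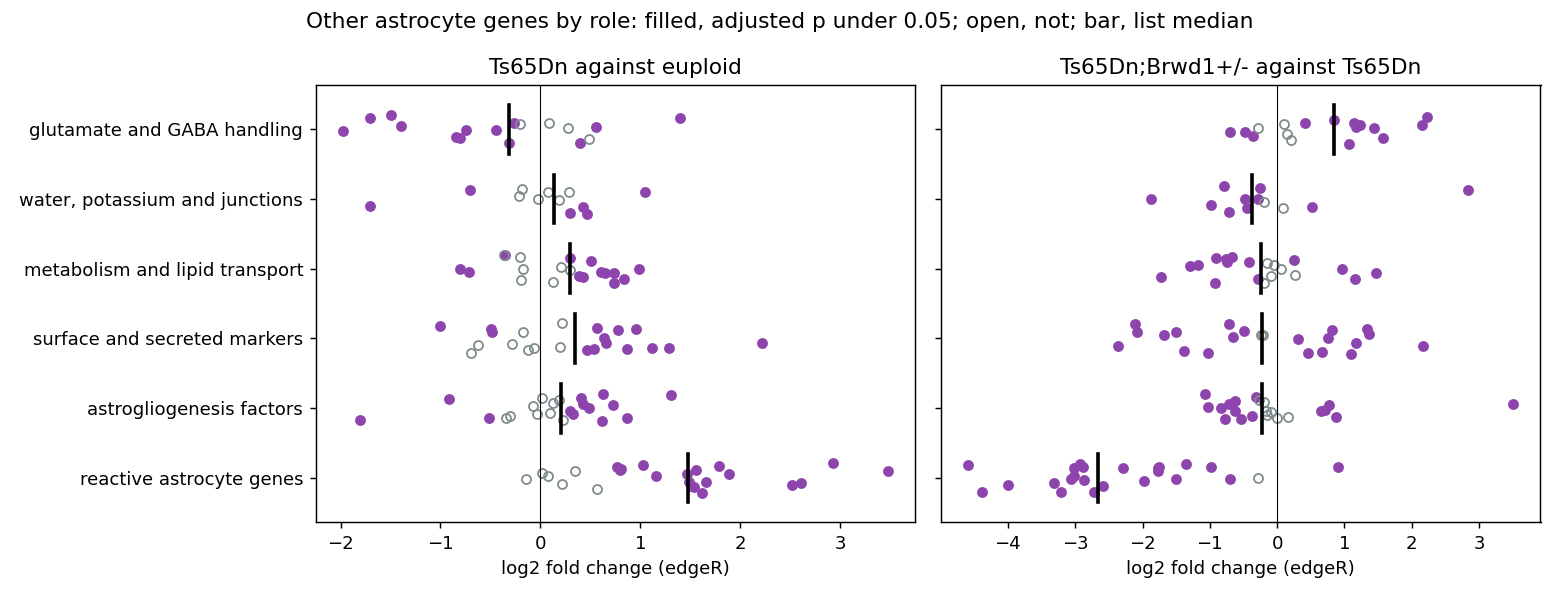
Log2 fold changes (edgeR) of the 117 other astrocyte genes in 6 lists, in Ts65Dn against euploid (left) and Ts65Dn;Brwd1+/- against Ts65Dn (right); filled points have an adjusted p under 0.05 and bars are list medians. The median of glutamate and GABA genes is -0.31 on the left and 0.85 on the right, and that of reactive genes 1.48 and -2.66.

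Paralogues of the members did not share one direction. Of 19 tested, 5 rose (Vim, S100a6, Atp1b3, Sox8 and S100a16) and 9 fell in Ts65Dn against euploid (25.6% and 21.1% of all genes); the calls of Sox8 and S100a16 were lost under most alternatives, with an adjusted p of up to 0.137 and 0.0939. Slc1a1, the neuronal glutamate transporter gene, fell from 66.3 to 27.6 CPM (-1.26, SE 0.36, adjusted p = 0.017), on the side of Slc1a2 and Slc1a3, and missed the threshold without euploid replicate 1 (-1.15, adjusted p = 0.0589). Aqp1, the water channel gene of the choroid plexus, fell by 2.28 (SE 0.75, adjusted p = 0.0298) from 3.67 ± 4.16 CPM (SD, n = 3), but this rests on euploid replicate 2, in which choroid plexus markers summed to 749 CPM against 152 and 161 in replicates 1 and 3. Without that library the value was -0.74 and missed the threshold (adjusted p = 0.088). Gjd2, a neuronal connexin gene, fell by 1.54, opposite to Gja1. Vim, whose filament assembles with GFAP, rose from 2716 to 5733 CPM (1.08) and fell by 1.90 in the second comparison. Aldh1l2, the mitochondrial relative of Aldh1l1, fell by 0.71 (adjusted p = 0.000204) and rose by 1.30, opposite to Aldh1l1. Atp1b1, the neuronal beta subunit gene, fell by 0.96 (adjusted p = 0.00884), opposite to Atp1b2. Sox10, an oligodendrocyte factor gene and relative of Sox9, stood at 2.47, 4.63 and 48.4 CPM and rose by 3.37 in the second comparison.

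Markers of other cells also differed with genotype, and their part in the values above was not tested. Over all genes, 25.6% rose and 21.1% fell in Ts65Dn against euploid, and 27.6% rose and 30.5% fell in the second comparison. Radial glia and progenitor markers summed to 4705 to 5363 CPM in euploid, 7530 to 9838 in Ts65Dn and 3452 to 4024 in the third group. Vim alone, 1 of these markers, averaged 2716, 5733 and 1537 CPM in the same order and carried much of the difference. Of the 12 markers, 7 rose and 4 fell in Ts65Dn, and 4 rose and 6 fell in the second comparison. Ependymal markers summed to 428 to 532, 748 to 922 and 197 to 271 CPM, with 5 of 9 up in Ts65Dn and all 9 down in the second comparison. Oligodendrocyte lineage markers summed to 362 to 415, 613 to 714 and 958 to 1160 CPM; 3 of 10 rose and 1 fell in Ts65Dn, where Olig1 alone went from 220 to 452 CPM and Pdgfra stood at 18.9 and 14.7, and 7 rose and 2 fell in the second comparison. Fibroblast markers summed to 390 to 523, 767 to 1288 and 253 to 307 CPM, although 5 of the 10 fibroblast markers rose and 5 fell in Ts65Dn. The microglia sums were 26.2 to 35.2, 42.2 to 52.0 and 18.2 to 25.1 CPM, and Tmem119, Trem2, P2ry12 and Itgam had at most 9 counts in a library. The endothelial sums were 151 to 163, 788 to 1026 and 130 to 187 CPM, of which Kdr alone held 755 in Ts65Dn and 83.1 in euploid on average, while Cldn5 had no count in any library and Cdh5 at most 4. Choroid plexus markers summed to 152 to 749, 212 to 251 and 55.3 to 64.4 CPM, where 749 is euploid replicate 2 again.

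**Figure D5:**
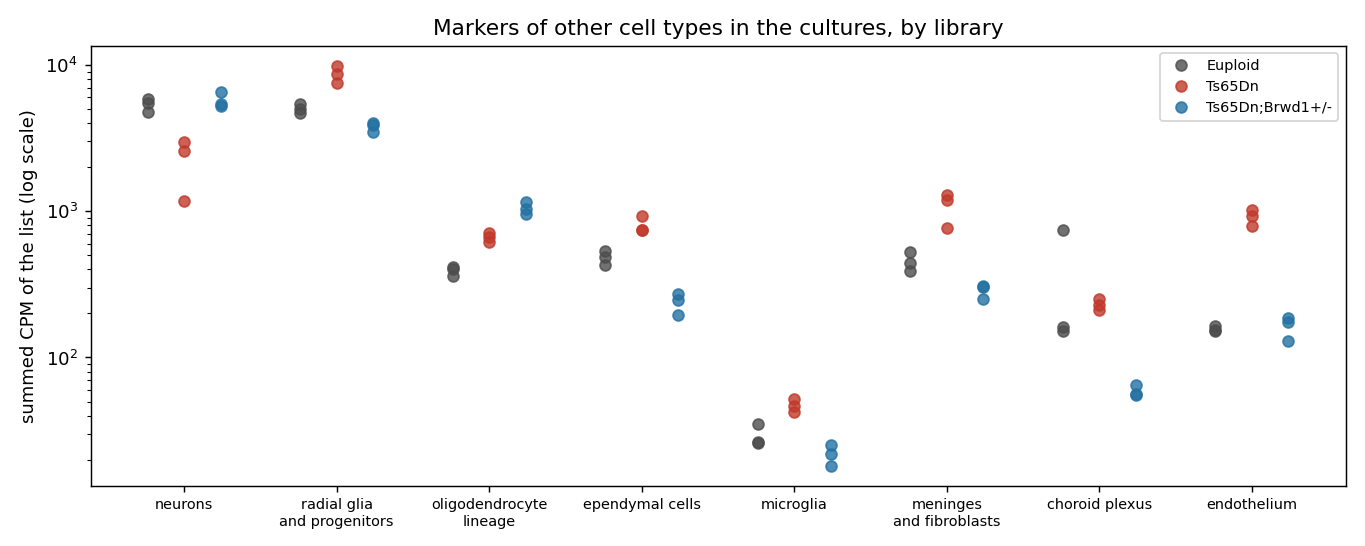
Summed CPM (log axis) of marker lists of other cell types in each culture library, coloured by genotype. Neuron sums are 1169 to 2992 in Ts65Dn and 4740 to 6521 in the other 6 libraries, while progenitor, ependymal, fibroblast and endothelial sums are highest in Ts65Dn. Kdr alone holds most of the endothelial sum there, and Vim 5733 CPM of the progenitor sum on average. Of the fibroblast markers, 5 rose and 5 fell in Ts65Dn against euploid.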

How the data were processed

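The authors aligned the culture reads to mm10 with HISAT2 and deposited unnormalised counts per gene and library; the paper's methods name featureCounts, while each file ends in 5 lines that name no gene, in the form htseq-count writes. These lines took between 37.4% and 40% of all counts and were left out. The library kit does not mark strand. The authors deposited 1 annotated peak list per genotype and assay, each peak carrying its q-value and its enrichment as a fold on a linear scale; how replicates were joined for the lists, and the depth per library, are not given in the sources used here. Peak coordinates are given as deposited (mm10).

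Counts were filtered with filterByExpr (17173 of 52636 genes kept), scaled by TMM, and fitted over all 9 libraries with genotype as the factor by the quasi-likelihood test of edgeR 4.0.16 in R 4.3.3, with Benjamini-Hochberg adjustment over all genes tested and a threshold of 0.05. Log2 CPM used a prior count of 2. A standard error is the fold change divided by the root of its F statistic. The fit was also run on simulated counts with known fold changes, and the outcome is not reported here. The normalisation by RUVr that the authors used was not run. The members and the gene lists were chosen with earlier results of these data known, so counts over the lists are not independent evidence. Named genes were the 10 members, in each list and comparison the 3 passing genes with the largest fold change and a mean of at least 1 CPM, the 3 genes nearest in profile to each of Slc1a2, Slc1a3, Aqp4, Gja1 and Aldh1l1, and Brwd1 with sex-linked genes as label checks. Small counts were also named in full, and a few further genes are marked as such in the text; these were chosen after their values were seen. Some genes that the rule names are not reported here. Peaks were assigned by the gene identifier in the deposited lists; gene positions and exon lengths came from GENCODE, and sequences from the RefSeq genome and promoter table of the same build. Samples of a genotype were taken as replicates; the labels call the cultures pooled male and female, the paper's methods have cortices dissociated one embryo at a time, and neither says which embryos each library holds, so p-values measure only the spread between these libraries, which may be technical. Replicate pairs differed by more than counting noise (mean chi-square per gene between 4.05 and 51.1). Deviations from the genotype means correlated between same-numbered libraries across genes at r = 0.129, 0.206 and 0.263 for euploid with Ts65Dn, at 0.096, -0.162 and 0.186 for euploid with Ts65Dn;Brwd1+/-, and at 0.279, -0.125 and 0.206 for Ts65Dn with Ts65Dn;Brwd1+/-. Libraries of different number were not compared, so this check cannot show whether the numbers pair libraries. Alternatives were other size factors, no scaling, other filters, DESeq2 1.42.0, a replicate block, leaving out each library, and for peaks a q-value limit and assignment by overlap. Input and immunoprecipitation libraries had no per-sample values to use.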

Additional observations from a re-analysis of the deposited data

How the results depend on the processing

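Every difference between the transporters and Aqp4, Gja1 and Aldh1l1 kept its sign under the 15 alternatives. Both sets were chosen by these same values, so the kept sign is no support for the split. Leaving out 1 library at a time gave -2.14 to -1.81 for Ts65Dn against euploid and 2.13 to 2.45 for Ts65Dn;Brwd1+/- against Ts65Dn, where the largest sizes came without Ts65Dn replicate 1 and the smallest without Ts65Dn replicate 3, and 0.24 to 0.37 for Ts65Dn;Brwd1+/- against euploid. Without Ts65Dn replicate 1 the log2 fold change of Slc1a2 was -1.30 and 1.99 in the first 2 comparisons. With the replicate block, 85, 98 and 64 other astrocyte genes passed in place of 77, 95 and 59; the block changed no count by over 1.5 times. Over all alternatives these counts lay between 73 and 85, 90 and 98, and 47 and 67. Of 102 genes and comparisons chosen for naming and past the threshold, 91 stayed past it under every alternative in which they were tested. The calls lost under some were Aqp1 in both comparisons with euploid, Slc1a1, Sox8, S100a16 and Hepacam in Ts65Dn against euploid, Kcnj16 and Acsbg1 in Ts65Dn;Brwd1+/- against Ts65Dn, and Trpv4, Slc25a18 and Slc38a1 in Ts65Dn;Brwd1+/- against euploid. In Ts65Dn against euploid, Kcnj10 passed without Ts65Dn;Brwd1+/- replicate 1 (-0.25, adjusted p = 0.0359). None of these 102 changed sign. The cause was not tested. With a q-value under 0.05 required, 0 peaks of the Ts65Dn SMARCA2/4 list named a member in place of 2, by construction, since both had a q-value of 0.293. Assignment by overlap moved no list's count by over 1.5 times. The 3 libraries per genotype, the sex pattern and the pooled peak lists limit all values.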

Other observations

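Genes whose profile over the 9 culture libraries was nearest to a member were ranked by the root mean square difference of log2 CPM after centring each gene. Nearest to Slc1a2 were Syt10 (0.11), Lmo3 (0.12) and Nfe2l3 (0.14), and nearest to Slc1a3 were Eva1a (0.08), S1pr1 (0.08) and Zeb2 (0.11). For Aqp4 they were Slc5a3 (0.12), a myo-inositol transporter gene, Cd44 (0.14), a hyaluronan receptor gene of the reactive list, and Tor3a (0.14). Gja1 had Pon2 (0.07), Car5b (0.08) and a gene without a symbol in the table used (0.09), and Aldh1l1 had Gfpt2 (0.10), Slc27a3 (0.10) and Fsip1 (0.10). Among the members themselves the nearest pair was Sox9 and Atp1b2 (0.20), and Slc1a3 was nearest to Aldoc (0.27). With 9 libraries in 3 genotypes many genes share such a profile, and nothing about shared control is read from it.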
